A study of Rattus norvegicus with 9 samples.

Results

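The 9 genes described here encode subunits of AP-1, the dimeric transcription factor of the Fos, Jun, Atf and Maf families: Fos, Fosb, Fosl1, Fosl2, Jun, Junb, Jund, Atf3 and Maff. They were chosen by symbol, with earlier results of these data known. All 9 were present among the 17315 genes of each count table and among the 10128 genes with enough reads to be tested. The RNA came from cultured rat horizontal basal cells (strain SD, passage 7), reserve stem cells of the smell epithelium of the nose, grown from dissociated primary tissue. Cultures received 50 nM phorbol 12-myristate 13-acetate (PMA) for 6 h or for 12 h, against a vehicle of 0.1% DMSO labelled time 0, with 3 libraries in each of the 3 groups. No vehicle libraries were labelled 6 h or 12 h, so PMA cannot be told apart from time in culture. Nothing in the labels ties the replicates to separate cultures or animals. The p-values therefore reflect the spread among these libraries alone, and that spread may be technical.

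AP-1 binds DNA as a dimer of basic leucine zipper (bZIP) proteins. Jun proteins can pair with each other or with Fos proteins, whereas Fos proteins need a partner from outside their family, such as a Jun protein. Phorbol esters activate protein kinase C, and through the MAP kinase cascade they induce Fos and Jun within minutes as immediate early genes, while the phorbol ester response element of target genes is itself an AP-1 site. Subunits differ in strength: Fos, Fosb and Jun carry strong activation domains, Fosl1 and Fosl2 lack a comparable one, and Maff has none. In stratified epithelia AP-1 is known for its part in wound repair and in the expression of differentiation genes.

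Reads in genes numbered 13601635 to 19001819 per library, or 67.8% to 71.3% of all reads. All 7 horizontal basal cell markers were present in every group, with a summed level of 14836 to 17039 CPM in vehicle, 2467 to 2980 CPM at 6 h and 3854 to 4497 CPM at 12 h, and 6 of the 7 fell at both times against vehicle while Icam1 rose. CPM is the count of a gene scaled to a common library total (edgeR's CPM unit) after TMM adjustment. Most markers of other cells stayed under 1 CPM in every library. This held for 7 of 8 markers of olfactory neurons, 5 of 6 of sustentacular cells and glands, 5 of 6 of respiratory and microvillar cells, 5 of 7 of fibroblasts and pericytes, 4 of 6 of immune cells, and 6 of 7 of endothelium and glia. The summed sustentacular and gland list stood at 16.7 to 18.9, 66.1 to 77.9 and 115 to 151 CPM in vehicle, at 6 h and at 12 h, nearly all of it Sox9, with Cyp2g1, Cyp1a2 and Ermn at 0 reads throughout. The immune list stood at 18.4 to 21.1, 69.0 to 71.8 and 81.0 to 93.0 CPM, nearly all of it Cd68, with Ptprc at 0 reads throughout. The summed levels of the other 4 lists did not exceed 5.78 CPM in any library. The vehicle libraries stood apart from each other in the summed level of 6 proliferation genes, at 205, 448 and 842 CPM, against 8.45 to 10.5 CPM at 6 h and 6.16 to 7.89 CPM at 12 h. The part of proliferation in the changes below was not tested, and in bulk RNA fewer cells with a transcript and less of it per cell cannot be told apart.

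After 6 h of PMA all 9 subunits rose against vehicle. Calls were made at an adjusted p under 0.05 in the quasi-likelihood test of edgeR, adjusted by Benjamini-Hochberg over all 10128 genes. By this rule 9 subunits were higher and 0 were lower, where 37.8% of all genes were higher, 39.0% lower and 76.8% one or the other. With upper-quartile scaling 3023 genes were higher and 4837 lower, and without normalization 2277 and 5855, where TMM gave 3831 and 3945. The median log2 fold change of the subunits was 2.27, against -0.03 for all genes tested. In all 9 genes the 3 libraries at 6 h lay above the 3 of vehicle, as they did in 38.6% of all genes, while in 40.3% they lay below. The sizes ranged widely, with Atf3 69.5-fold higher and Jund 2.46-fold higher at the ends. The count of 9 higher genes was the same under every one of the 17 alternatives tried.

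After 12 h, 8 subunits were higher than in vehicle and 0 were lower (7 and 1 without normalization, where Fosl1 turned), against 37.7% and 38.2% of all genes and 75.8% in either direction, and Fosl2 did not pass. The same 8 genes had no overlap with vehicle, where 38.7% of all genes lay wholly above it and 40.0% wholly below. The call of Fosl1 was also lost with upper-quartile scaling and without vehicle replicate 1 or 2, and Fosl2 passed without vehicle replicate 1. The median log2 fold change of the 9 was 2.58, against -0.02 for all genes. Both comparisons use the same vehicle libraries, so their values stand side by side and are not independent. Between 12 h and 6 h the subunits parted: Jun, Jund and Maff were higher at 12 h, and Fos, Fosb, Fosl1, Fosl2, Junb and Atf3 were lower. These 3 higher and 6 lower genes compare with 25.3% and 25.8% of all genes, or 51.1% in either direction. All but Junb had no overlap between the PMA groups, where 28.5% of all genes lay wholly higher at 12 h and 29.6% wholly lower. Rises that continued in the second interval are called progressive here and rises partly or wholly reversed in it transient, from the calls of the pairwise tests. No library was taken between time 0 and 6 h of PMA, so these names do not cover an earlier peak. Among all genes tested, 15.0% were transient risers and 7.40% were progressive risers.

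**Figure D1:**
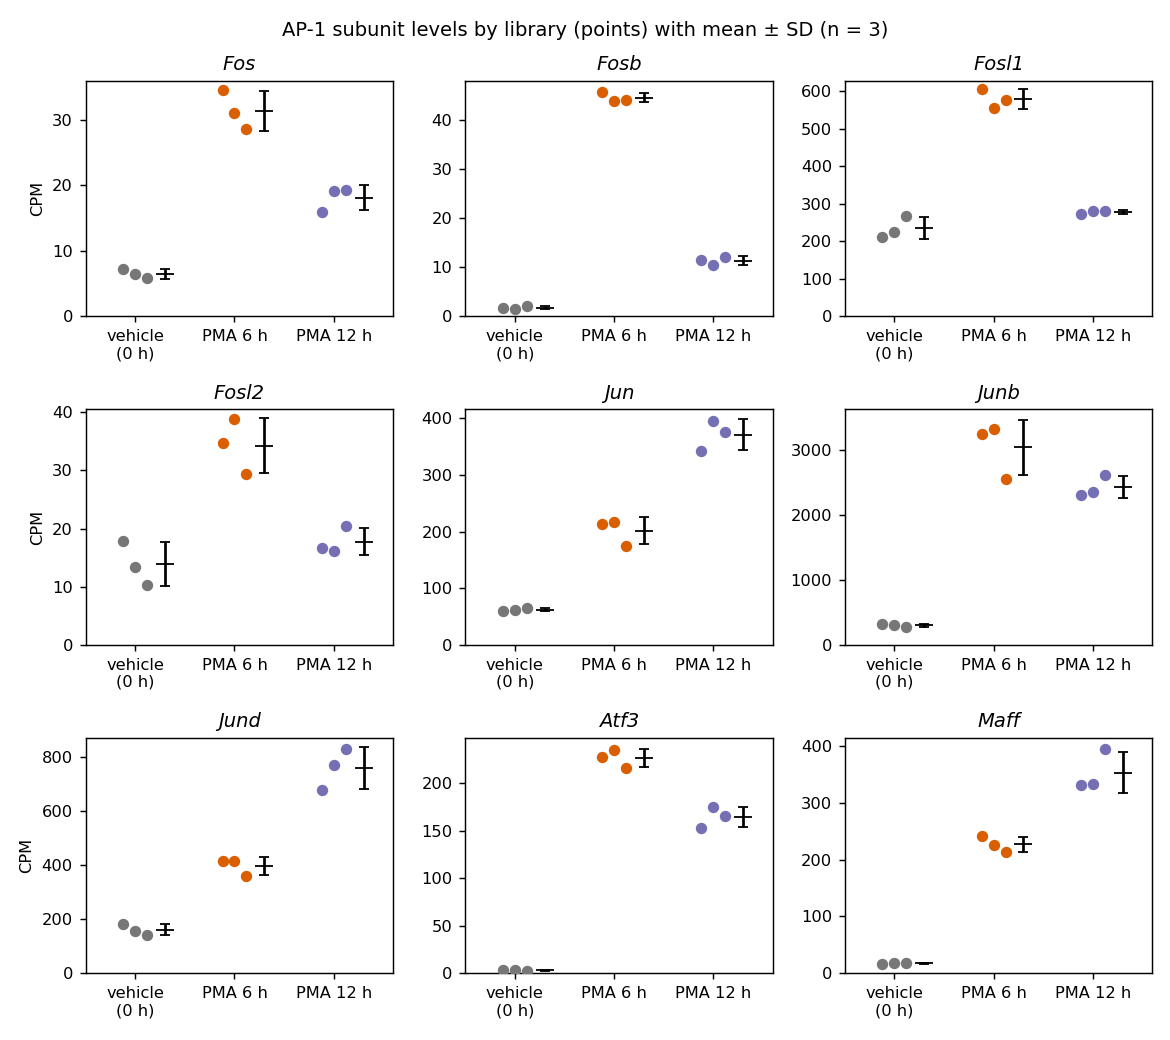
Level of each AP-1 subunit in CPM (linear axes from 0, 1 scale per gene) in the 3 libraries of vehicle, PMA 6 h and PMA 12 h, with the mean and SD of each group beside its points. Jun, Jund and Maff are highest at 12 h, and the other 6 genes have their highest mean at 6 h.

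Fos is the founding member of its family and a short-lived immediate early gene. It had 7.21, 6.45 and 5.79 CPM in the vehicle libraries, 34.5, 31.0 and 28.5 CPM at 6 h and 15.9, 19.1 and 19.3 CPM at 12 h. The 3 groups did not overlap. Fos was 4.81-fold higher at 6 h (log2 fold change 2.27 ± 0.14 SE, adjusted p = 1.6e-10) and 2.78-fold higher at 12 h (1.48 ± 0.15, adjusted p = 5.9e-08). From 6 h to 12 h it fell by 0.79 ± 0.14 on the log2 scale (adjusted p = 0.00012), which left it above vehicle. Its level rested on 109 to 167 reads per vehicle library, 422 to 498 at 6 h and 223 to 263 at 12 h.

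Fosb, a close relative of Fos with a strong activation domain, was nearly silent in vehicle. The vehicle libraries held 39, 36 and 40 reads of it, or 1.68, 1.55 and 2.12 CPM. Its level was 45.8, 43.9 and 44.2 CPM at 6 h and 11.5, 10.5 and 12.2 CPM at 12 h, again without overlap between groups. Fosb was 25.1-fold higher than vehicle at 6 h (log2 fold change 4.65 ± 0.16, adjusted p = 3.2e-14), and 0.810% of the genes tested had a larger fold change. At 12 h it was 6.41-fold higher than vehicle (2.68 ± 0.16, adjusted p = 8.3e-11). Its drop from 6 h to 12 h, 3.92-fold, was the steepest of the 9 genes (log2 fold change -1.97 ± 0.13, adjusted p = 3.8e-09), and 1.04% of all genes had a more negative value.

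Fosl1, which is expressed in basal epithelial cells and lacks a strong activation domain, was already well expressed in vehicle. It had 211, 225 and 267 CPM in vehicle, 607, 555 and 575 CPM at 6 h and 272, 282 and 282 CPM at 12 h. The 6 h libraries stood far above all others, while the lowest 12 h library was only just above the highest vehicle library. Fosl1 was 2.47-fold higher at 6 h (log2 fold change 1.31 ± 0.08, adjusted p = 2e-10), and from 6 h to 12 h it fell by 1.06 ± 0.08 on the log2 scale (adjusted p = 2.9e-08). Its 1.19-fold difference from vehicle at 12 h passed the test (0.25 ± 0.08, adjusted p = 0.012), but the sign depended on the scaling: the log2 fold change was -0.019 with upper-quartile scaling (adjusted p = 0.84) and -0.33 without normalization (adjusted p = 0.0013). The call was also lost without vehicle replicate 1 (0.18, adjusted p = 0.069) or vehicle replicate 2 (0.22, adjusted p = 0.056).

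Fosl2, the other Fos protein without a strong activation domain, had 17.9, 13.4 and 10.4 CPM in vehicle, 34.7, 38.8 and 29.3 CPM at 6 h and 16.6, 16.1 and 20.4 CPM at 12 h. The 12 h libraries overlapped with those of vehicle, whose SD of 3.78 CPM around a mean of 13.9 CPM was wide. Fosl2 was 2.46-fold higher at 6 h (log2 fold change 1.30 ± 0.17, adjusted p = 3.8e-06). At 12 h its difference from vehicle did not pass (0.34 ± 0.18, adjusted p = 0.089), although it did without vehicle replicate 1 (0.57, adjusted p = 0.0055), and without normalization it was -0.24 (adjusted p = 0.22). From 6 h to 12 h it fell by 0.95 ± 0.18 on the log2 scale (adjusted p = 0.00027). Vehicle replicate 3, the library with the highest level of proliferation genes, had the lowest Fosl2 of the 3 vehicle libraries, as well as the lowest Fos, Junb, Jund and Atf3. It had the highest Fosl1, Fosb, Jun and Maff.

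Jun, the first known partner of Fos and a subunit that can activate its own promoter, followed another course. It had 60.1, 61.0 and 65.2 CPM in vehicle, 213, 217 and 174 CPM at 6 h and 341, 396 and 376 CPM at 12 h. Each group lay wholly above the one before it. Jun was 3.24-fold higher at 6 h (log2 fold change 1.70 ± 0.09, adjusted p = 1.5e-11) and 5.98-fold higher at 12 h (2.58 ± 0.09, adjusted p = 8.3e-14). The step from 6 h to 12 h was 1.84-fold up (0.88 ± 0.09, adjusted p = 3.4e-07).

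Junb, a Jun protein that is a weaker activator and can counteract Jun, had 327, 299 and 277 CPM in vehicle, 3235.5, 3315 and 2545 CPM at 6 h and 2309, 2351 and 2613 CPM at 12 h. Both PMA groups lay far above vehicle, and they overlapped with each other. Junb was 10.1-fold higher at 6 h (log2 fold change 3.33 ± 0.11, adjusted p = 2.8e-14) and 8.06-fold higher at 12 h (3.01 ± 0.11, adjusted p = 9.1e-14). Its fall from 6 h to 12 h was small (-0.32 ± 0.10, adjusted p = 0.011). It no longer passed without PMA 6 h replicate 1 (-0.27, adjusted p = 0.06), PMA 6 h replicate 2 (-0.25, adjusted p = 0.067) or PMA 12 h replicate 1 (-0.29, adjusted p = 0.056), and Junb then counted as sustained, that is higher at both times with no call between them.

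Jund, known in many cells as the Jun gene with the steadiest expression and as a brake on proliferation, had 183, 158 and 143 CPM in vehicle, 417, 416 and 359 CPM at 6 h and 679, 770.0 and 830.5 CPM at 12 h. The groups did not overlap and each lay above the one before. Jund was 2.46-fold higher at 6 h (log2 fold change 1.30 ± 0.10, adjusted p = 3e-09) and 4.70-fold higher at 12 h (2.23 ± 0.10, adjusted p = 3.8e-12). Its step from 6 h to 12 h was 1.91-fold up (0.94 ± 0.10, adjusted p = 8e-07), and 8.19% of all genes had a larger one.

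Atf3, a stress-inducible bZIP protein that pairs with Jun proteins and represses as a homodimer, had the largest fold change of the 9 against vehicle at both times. The vehicle libraries held 82, 74 and 56 reads of it, or 3.54, 3.18 and 2.97 CPM. Its level was 227, 235 and 216 CPM at 6 h and 153, 174 and 165 CPM at 12 h, so that no groups overlapped. Atf3 was 69.5-fold higher at 6 h (log2 fold change 6.12 ± 0.10, adjusted p = 3.4e-17), with 0.247% of all genes above it, and 50.5-fold higher at 12 h (5.66 ± 0.10, adjusted p = 5.8e-17). The fall between the PMA groups was 1.38-fold (-0.46 ± 0.08, adjusted p = 7.1e-05).

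Maff is a small Maf protein, which binds DNA as a dimer but has no activation domain of its own. It had 16.7, 17.7 and 18.6 CPM in vehicle, 241, 226 and 214 CPM at 6 h and 332, 332 and 395 CPM at 12 h. The groups were clear of each other in rising order. Maff was 12.9-fold higher at 6 h (log2 fold change 3.68 ± 0.09, adjusted p = 1.3e-15) and 20.0-fold higher at 12 h (4.32 ± 0.10, adjusted p = 4.1e-16). From 6 h to 12 h it was 1.55-fold higher (0.64 ± 0.08, adjusted p = 5.4e-06).

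**Figure D2:**
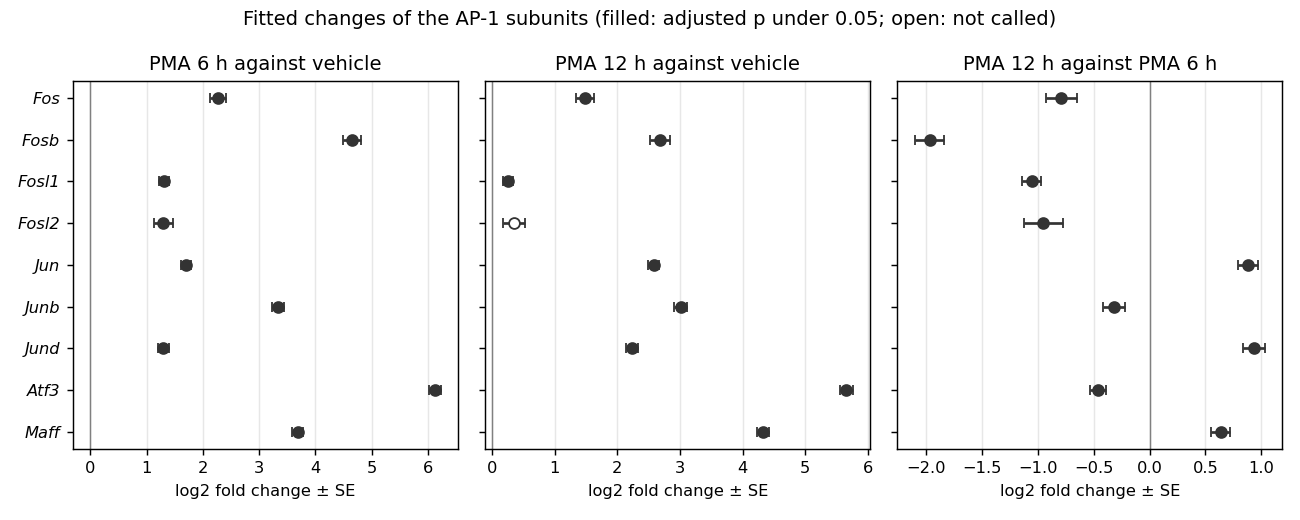
Fitted log2 fold change of each AP-1 subunit with its SE in the 3 comparisons, where filled points have an adjusted p under 0.05 in edgeR's quasi-likelihood test. All points lie right of 0 at 6 h, and in the comparison of 12 h with 6 h Jun, Jund and Maff lie right of 0 and the other 6 left of it.

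**Figure D3:**
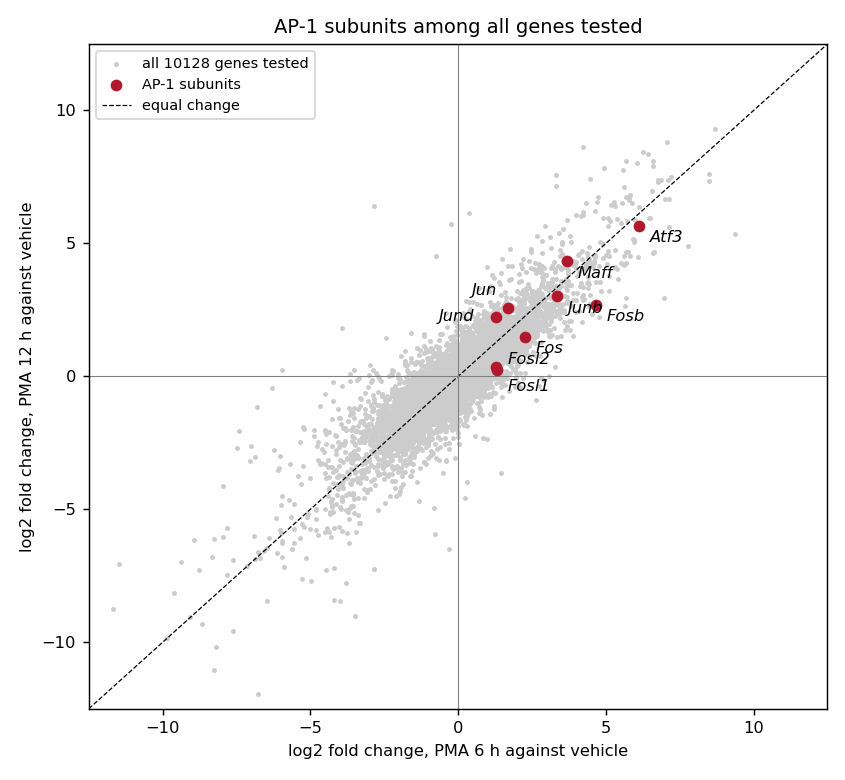
Log2 fold change at 12 h (vertical axis) against that at 6 h (horizontal axis), both relative to the same 3 vehicle libraries, for all 10128 genes tested (grey) and the AP-1 subunits (red). Jun, Jund and Maff lie above the dashed line of equal change and the other 6 subunits below it.

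The summed levels of the Fos family and of the Jun family are given side by side here, as a description with no test. Summed over Fos, Fosb, Fosl1 and Fosl2, the level was 238 to 285 CPM in vehicle, 669 to 722 CPM at 6 h and 316 to 333 CPM at 12 h. Summed over Jun, Junb and Jund, it was 485 to 571 CPM in vehicle, 3078 to 3948 CPM at 6 h and 3329 to 3819 CPM at 12 h. Reads of Jun genes per read of a Fos gene, a ratio free of any scaling between libraries, came to 1.70 to 2.40 in vehicle, 4.54 to 5.91 at 6 h and 10.5 to 11.5 at 12 h. The 3 groups did not overlap in this ratio. It is not corrected for gene length and so describes change between groups, not the number of molecules.

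Within the Fos family most reads came from 1 gene in every library. Fosl1 held 88.7% to 93.6% of the family's reads in vehicle, 83.0% to 84.9% at 6 h and 84.4% to 86.1% at 12 h. Fosb held 0.629% to 0.744% in vehicle, 6.35% to 6.57% at 6 h and 3.19% to 3.67% at 12 h. The share of Fos was 2.03% to 3.03%, 4.21% to 4.78% and 5.04% to 5.83% in the same order, and that of Fosl2 overlapped between all groups, from 3.63% to 7.52% in vehicle.

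Within the Jun family Junb held 57.0% to 57.7% of the reads in vehicle, 82.7% to 84.0% at 6 h and 66.9% to 69.4% at 12 h. Jund held 29.5% to 32.1% in vehicle, 10.5% to 11.7% at 6 h and 20.4% to 21.9% at 12 h. The share of Jun was 10.5% to 13.4% in vehicle, 5.51% to 5.66% at 6 h and 9.84% to 11.3% at 12 h, which overlaps with vehicle although its level was 5.98-fold higher than there.

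**Figure D4:**
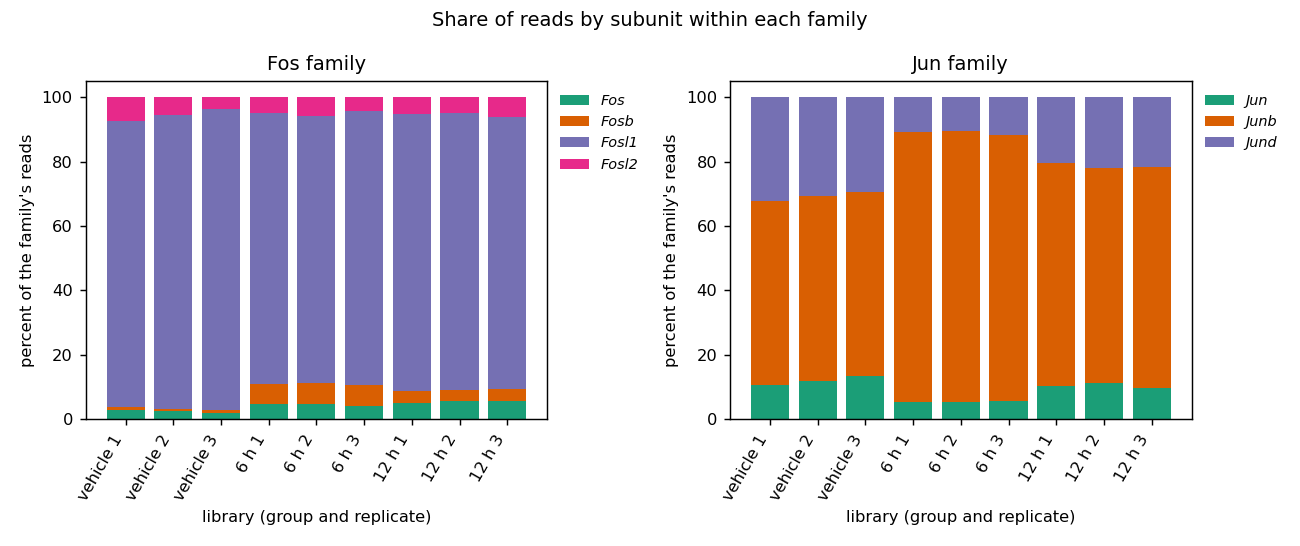
Percentage of the reads of the Fos family (left) and the Jun family (right) held by each gene in the 9 libraries, not corrected for gene length. Fosl1 makes up at least 83.0% of the Fos family in every library, and Junb is at its largest share of the Jun family, 82.7% to 84.0%, at 6 h.

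Promoter sequences from RefSeq (build GRCr8, the 250 bases before the annotated start) were at hand for 6 of the 9 genes: Fosb, Fosl1, Fosl2, Junb, Jund and Maff. The motifs searched on both strands were the AP-1 site TGANTCA, the cyclic AMP response element TGACGTCA, which is the same on both strands and is also bound by Jun and Atf dimers, and the CArG box, the site of serum response factor. The first and the second motif cannot overlap in full, since they differ in the middle. Jund and Maff held TGACGTCA, and Fosb, Fosl1, Fosl2 and Junb held none of the motifs in this window. No sequence was at hand for Jun, progressive like Jund and Maff, or for Fos and Atf3. A link between a motif and the course over time was not tested. Over all 33465 promoters of the same length, 6.34% held TGANTCA and 1.59% held TGACGTCA, and 501 promoters held a CArG box. A match is a description of the sequence and not evidence of binding. The windows of Jund and Maff are shown with their match in capitals, next to that of Junb, a relative of Jund, in which none was found. They lie at chr16:18769772-18770021 (minus strand), chr7:112792537-112792786 (plus strand) and chr19:40080876-40081125 (plus strand).
Jund: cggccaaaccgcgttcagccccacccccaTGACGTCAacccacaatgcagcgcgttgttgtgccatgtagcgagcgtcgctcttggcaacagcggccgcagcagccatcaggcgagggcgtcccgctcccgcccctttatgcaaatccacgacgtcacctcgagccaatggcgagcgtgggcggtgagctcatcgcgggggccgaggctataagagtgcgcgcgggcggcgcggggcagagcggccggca
Maff: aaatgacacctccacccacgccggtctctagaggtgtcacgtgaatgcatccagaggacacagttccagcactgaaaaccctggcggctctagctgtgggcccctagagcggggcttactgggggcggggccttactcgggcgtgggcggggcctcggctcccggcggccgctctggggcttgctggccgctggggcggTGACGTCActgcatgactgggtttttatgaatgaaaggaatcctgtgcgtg
Junb: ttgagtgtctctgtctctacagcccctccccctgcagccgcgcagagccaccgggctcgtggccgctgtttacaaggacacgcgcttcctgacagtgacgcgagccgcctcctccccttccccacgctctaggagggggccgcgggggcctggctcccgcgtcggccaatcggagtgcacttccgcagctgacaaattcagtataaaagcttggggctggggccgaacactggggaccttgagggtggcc

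In Jund the match lies 221 to 214 bases before the start, and in Maff 51 to 44 bases before it. GC content was 68.4% in the Jund window, 63.6% in that of Maff and 66.0% in that of Junb, against a median of 51.2% over all promoters. The Fosb window had the lowest of the 6, at 43.6%.

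The genes whose log2 CPM followed each subunit most closely over the 9 libraries were named by Pearson's r, which here mostly describes the order and distance of the 3 groups. Atf3 was closest to Fbxo32 (r = 0.9995) and Pard6b (r = 0.999), and Junb to Pard6b and Furin (r = 0.9986 each). Fosb was followed by Rbm7 (0.9978) and Phlda1 (0.9977), Fos by Fam46a (0.9964) and Zc3hav1 (0.9951), and Fosl1 by Sf1 (0.993) and Qrich1 (0.9923). For the progressive genes these were Entpd2 (0.9974) and Bag6 (0.9972) for Jun, Mospd1 (0.9969) and Atp6v0c (0.9954) for Jund, and S100a7a (0.9989) and Rnf39 (0.9988) for Maff. Such likeness was common for some subunits and rare for others: 219 genes had an r over 0.99 with Atf3, 188 with Maff and 152 with Junb, but 4 with Fosl1 and 1 with Fosl2, which was Hspb8 (0.9922).

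Other bZIP genes, among them partners of these subunits, were read from a list of 26, of which 22 were in the count tables and 18 were tested. This list and the lists below were chosen with earlier results of these data known, so their counts are descriptions. At 6 h, 13 were higher, 3 were lower and 2 did not pass, where 37.8% of all genes were higher and 39.0% lower. Their median log2 fold change was 1.10 against -0.03 for all genes, and without normalization 11 were higher and 5 lower. At 12 h, 12 were higher and 1 was lower, where 37.7% and 38.2% of all genes were. The lower genes numbered 4 with upper-quartile scaling and 5 without normalization. Batf3, a partner of Jun proteins, had 7 reads in the vehicle libraries together and means of 0.100, 5.62 and 15.8 CPM in vehicle, at 6 h and at 12 h (log2 fold change 5.62 ± 0.42 at 6 h, adjusted p = 1.6e-09). Mafk, a small Maf protein like Maff, was at 2.94 ± 0.09 at 6 h (adjusted p = 1e-14).

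Jdp2, a repressor that pairs with Jun proteins, was the bZIP partner that fell most at 6 h. Its mean was 17.3 ± 7.04 CPM in vehicle, 2.15 ± 0.97 CPM at 6 h and 13.2 ± 2.16 CPM at 12 h (SD, n = 3 each). The log2 fold change was -3.03 ± 0.38 at 6 h (adjusted p = 2.3e-05), and at 12 h the difference from vehicle did not pass (-0.39). From 6 h to 12 h Jdp2 rose (log2 fold change 2.65, adjusted p = 0.0002). Creb5 (-2.21, or -2.95 without PMA 6 h replicate 3) and Nfe2l2 (-1.15), a factor of the antioxidant response that pairs with small Maf proteins, also fell at 6 h. Creb5 was low in all groups, with means of 2.73, 0.568 and 1.81 CPM in vehicle, at 6 h and at 12 h.

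Of 14 MAP kinase cascade genes tested, out of 17 listed, 7 were higher and 5 lower at 6 h, where 76.8% of all genes were called in either direction. Their median log2 fold change was 0.17, against -0.03 for all genes, and became -0.09 with upper-quartile scaling (5 higher and 6 lower) and -0.37 without normalization (5 and 9). Rps6ka3 (1.28), Map2k7 (1.07) and Map2k4 (1.04) rose, Map2k7 and Map2k4 encoding the kinases above JNK, and Mapk9 (-1.09), a JNK itself, fell with Rps6ka2 (-0.94) and Map2k5 (-0.87). Serum response factor and its cofactors regulate Fos transcription, and 4 of the 6 listed were tested. Elk3 (1.33), Elk4 (1.11) and Elk1 (0.89) rose at 6 h, and Srf itself was at -0.06 and did not pass. With upper-quartile scaling or without normalization Srf counted as lower.

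Of 9 tested genes (11 listed) for the turnover of AP-1 proteins and mRNAs, 6 rose and 3 fell at 6 h, where 37.8% of all genes rose and 39.0% fell. Their median log2 fold change was 1.30, against -0.03 for all genes. Zfp36, whose protein binds AU-rich mRNAs such as that of Fos and speeds their decay, stood at 3.89 ± 0.10 (adjusted p = 1.8e-15), with its relative Zfp36l1 at 2.20 and the kinase gene Gsk3b at 1.65. At 12 h Zfp36 was at 4.18 against vehicle. Det1 (-2.69), a component of the ubiquitin ligase that degrades Jun, fell, as did Zfp36l2 (-0.75), a call lost without vehicle replicate 3 (-0.53, adjusted p = 0.051).

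**Figure D5:**
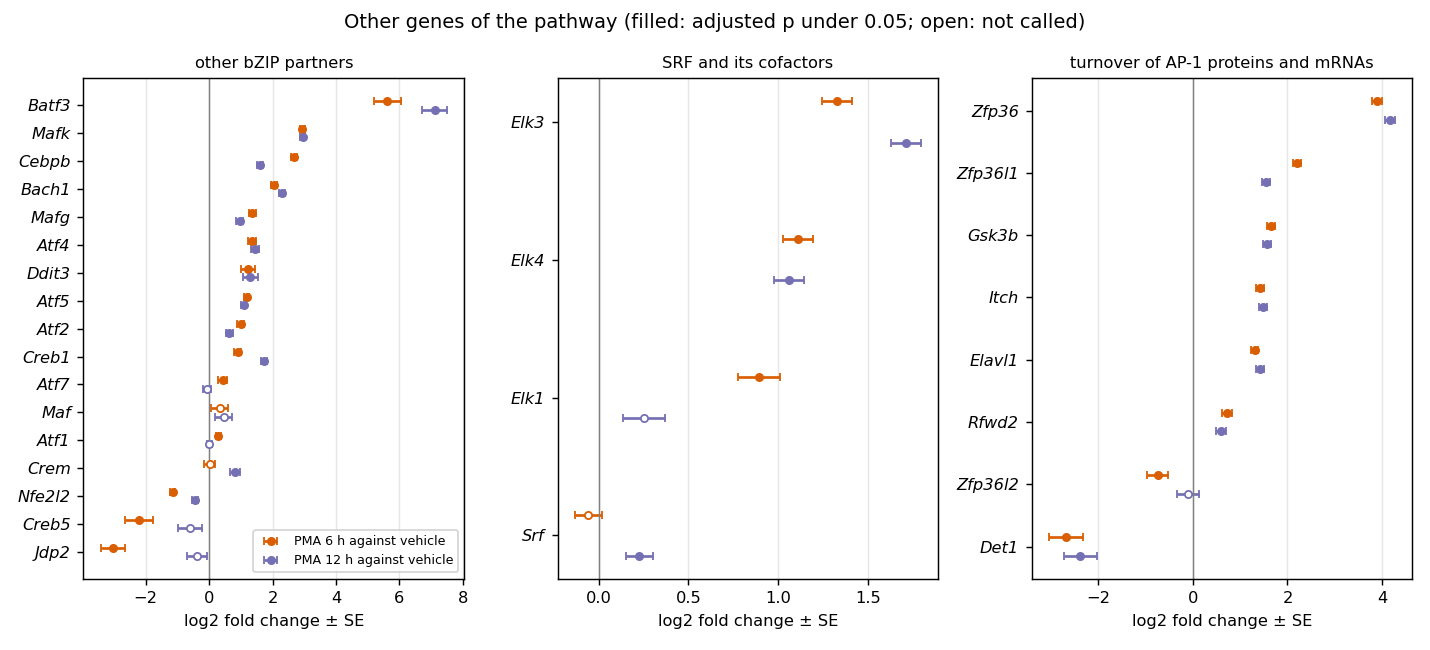
Fitted log2 fold change with SE of bZIP partner genes, serum response factor genes and AP-1 turnover genes at 6 h (orange) and 12 h (purple), both against vehicle, with filled points at adjusted p under 0.05. Batf3 and Zfp36 are the highest of their panels, and Jdp2 and Creb5 lie below 0, further at 6 h (-3.03 and -2.21) than at 12 h (-0.39 and -0.60).

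Among 20 genes known as AP-1 targets from other cells, 19 were tested. The list was chosen with earlier results of these data known, so its counts are no independent test. At 6 h 16 were higher and 2 lower than in vehicle, where 37.8% and 39.0% of all genes were, and at 12 h 16 were higher and 2 lower, against 37.7% and 38.2%. The higher genes were not all the same, since Mmp3 did not pass at 6 h and Cd44 did not at 12 h. These 2 genes were named after their values were seen. At 6 h 15 were higher with upper-quartile scaling and 14 without normalization, with 2 lower in each. At 12 h the counts were 16 higher and 3 lower, and 15 and 3. The 6 h call of Cd44 was lost in both settings (0.12, adjusted p = 0.23, and -0.16, adjusted p = 0.102). The list's median log2 fold change was 2.36 at 6 h and 2.23 at 12 h, against -0.03 and -0.02 for all genes. The metalloprotease Mmp9 (5.81 at 6 h, 6.81 at 12 h) and the calcium-binding proteins S100a9 (5.27 and 6.54) and S100a8 (4.69 and 6.55) led the list. Mmp9 had only 32 reads in the vehicle libraries together, and means of 0.506, 28.1 and 56.1 CPM in vehicle, at 6 h and at 12 h. The gap junction gene Gja1 (-1.66 and -1.01) and the cyclin Ccnd1 (-1.17 and -0.49) fell. From 6 h to 12 h, 9 of the 19 rose and 5 fell, where 25.3% of all genes rose and 25.8% fell. Gja1 (0.66) and Ccnd1 (0.68) were among the 9 that rose, but stayed below vehicle at 12 h. Mmp9 (0.999, adjusted p = 0.03) was also among the 9, and its call was lost in some alternatives, such as the compared groups alone (adjusted p = 0.078). These targets answer to other factors as well, and the part of AP-1 in their changes was not tested.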

How the data were processed

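RNA-seq counts of 9 libraries were analysed. Per the submitters' processing notes the authors aligned reads to rn6 with STAR 2.7.5b, and the deposited tables hold raw counts per gene symbol, unstranded and per strand; the sources used here do not give the annotation. The unstranded column was used. For each member it differed from the sum of both strand columns by at most 8 reads per library. The summary lines of each table (28.7% to 32.2% of all reads) were kept out.

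Groups and replicate numbers came from the sample titles. The test was that of edgeR 4.0.16 under R 4.3.3, with filterByExpr at a minimum count of 10, TMM scaling and 1 quasi-likelihood model with robust dispersions over the 9 libraries with the 3 groups as terms. The SE was taken as the fold change over the root of F. Correlations used log2 CPM with a prior count of 2. DESeq2 1.42.0 and limma 3.58.1 served as alternatives. The fit was also run on simulated counts with few changed genes, up and down alike, which cannot test the choice of scaling. The members and lists were chosen with earlier results of these data known. Named genes are all members, up to 3 called genes per direction of each list at 6 h, and 2 genes per member by correlation; some genes of the lists are counted but not reported here by name.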

Additional observations from a re-analysis of the deposited data

How the results depend on the processing

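Each of the 27 fold changes of the 9 subunits was recomputed under 17 alternatives: other scalings, DESeq2, limma-voom, no filter, a replicate block, the compared groups alone, the strand columns summed, and each library left out. Of these 459 values, 450 kept direction and side of the threshold, 3 reversed, 5 lost and 1 gained a call. The reversals were at 12 h against vehicle: Fosl1 with upper-quartile scaling (-0.019) and without normalization (-0.33, called lower, so that 1 subunit was lower), and Fosl2 without normalization (-0.24). The cause was not tested. Upper-quartile scaling shifted the median gene by -0.26 at 6 h and -0.27 at 12 h against vehicle, and no normalization by -0.54 and -0.58. Over all genes, no normalization gave 2277 higher and 5855 lower at 6 h, and 2120 higher and 6021 lower at 12 h, where TMM gave 3831 and 3945, and 3818 and 3864. Upper-quartile scaling gave 3023 and 4837 at 6 h, and 2963 and 4827 at 12 h. Leaving out 1 library gave 0 to 1 sustained subunits. No pairing by replicate number was seen, since 0 of 9 same-numbered pairs correlated over 0.1. Differently numbered pairs did not either (at most 0.0875), and with 3 libraries per group the check cannot exclude a pairing. With the replicate block 9 subunits were higher at 6 h and 8 at 12 h. Between the PMA groups 3 were then higher and 6 lower, as without the block. Fosb in vehicle rests on 36 to 40 reads per library, which limits its precision.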
